A study of Sus scrofa with 14 samples.

Results

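Expression and chromatin organization were described for 10 pig genes known from selection or trait mapping at domestication and fatness loci, namely LEPR, MC4R, FTO, PRKAG3, PLAG1, LCORL, NR6A1, VRTN, KIT and MC1R. The members were a fixed list of symbols, and the rule that lists them uses no measured value. Of the 10 genes, 9 were found by symbol among the 21280 genes of the expression tables. No Ensembl identifier there was paired with the symbol MC4R, so expression of MC4R was not analysed here and only its locus was described. The samples were greater omentum (GOM), a visceral fat depot, and the upper layer of backfat (ULB), a subcutaneous depot, of wild boars and Bama pigs. All 4 animals were 2-year-old adult females, 2 of each breed, raised on one farm under the same feeding and fasted before slaughter. The wild boars were caught young and raised in captivity, and the Bama pigs came from a line without long inbreeding. RNA-seq and in situ Hi-C were each represented by 7 libraries: 2 each of wild boar GOM, Bama pig GOM and wild boar ULB, and a single library of Bama pig ULB (replicate 2). The other Bama pig ULB library of the study was not used here. The GOM and ULB libraries of a breed came from the same 2 animals, so each breed is represented by 2 animals and p-values measure the spread between these few samples. The main tests had no term for the animal. Those over both depots or between the depots therefore counted libraries of the same animal as independent.

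LEPR encodes the receptor of leptin, the hormone that fat cells release in proportion to fat stores, and MC4R encodes a melanocortin receptor that acts in the hypothalamus downstream of leptin to restrain feeding. The other genes entered pig genetics through growth, muscle, skeleton or coat colour: PRKAG3 through muscle glycogen, PLAG1 and LCORL through body size, NR6A1 and VRTN through the number of vertebrae, and KIT and MC1R through pigmentation. FTO lies at the best known human obesity locus, whose long-range regulatory targets include IRX3 and IRX5.

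The sum of the estimated counts ranged from 10833153 to 18627076 over the libraries, and the TPM (transcripts scaled to a common total) of the listed genes summed to between 774260 and 956616. In the GOM the median gene differed by -0.58 on the log2 scale of mean TPM between wild boar and Bama pig, and by -0.01 after TMM normalization of the counts, so breed differences are given from the TMM-normalized counts and levels as TPM. Adipocyte markers were abundant in every library, with a summed TPM of the 7 markers between 9737 and 17997. Erythroid markers reached 7919 and 12602 TPM in wild boar GOM and 172 and 1427 TPM in Bama pig GOM, and 2317 and 1966 TPM in wild boar ULB with 346 TPM in Bama pig ULB. Skeletal muscle markers reached 290.9 TPM in wild boar ULB replicate 1 and at most 6.41 in the others. ALB, the liver albumin gene, was 293 and 873 TPM in Bama pig GOM and 77.7 TPM in Bama pig ULB but at most 6.60 TPM in wild boar libraries (log2 fold change over both depots -5.48, SE 0.48, edgeR adjusted p = 0.00463). Of the other measured genes of the liver list, APOB and TTR were also lower in wild boar (-4.58 and -3.41 over both depots), while APOA1 was not (0.38). The part of these cells in the differences was not tested. In bulk tissue, fewer cells of a type and less RNA per cell cannot be told apart.

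In the RefSeq annotation of Sscrofa11.1, whose 18 autosomes have the lengths found in the Hi-C files, the 10 genes lie on chromosomes 1 (MC4R and NR6A1), 4 (PLAG1), 6 (LEPR, FTO and MC1R), 7 (VRTN), 8 (LCORL and KIT) and 15 (PRKAG3), and their lengths run from 1.0 kb for MC1R to 387.6 kb for FTO. The 250 bases upstream of the first annotated start site are printed for LEPR, the member with the widest range of RNA, and VRTN, the member with the least RNA. The window of LEPR is at chr6:146896153-146896402 on the minus strand, and that of VRTN is at chr7:97614457-97614706 on the plus strand. The sequences run 5′ to 3′ toward the start site, and capitals mark CpG dinucleotides.
LEPR: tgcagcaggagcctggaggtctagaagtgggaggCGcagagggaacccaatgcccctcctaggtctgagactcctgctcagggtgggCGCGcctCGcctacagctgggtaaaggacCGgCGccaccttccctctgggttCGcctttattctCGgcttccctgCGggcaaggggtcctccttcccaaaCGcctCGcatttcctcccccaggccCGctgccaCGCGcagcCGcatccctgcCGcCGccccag
VRTN: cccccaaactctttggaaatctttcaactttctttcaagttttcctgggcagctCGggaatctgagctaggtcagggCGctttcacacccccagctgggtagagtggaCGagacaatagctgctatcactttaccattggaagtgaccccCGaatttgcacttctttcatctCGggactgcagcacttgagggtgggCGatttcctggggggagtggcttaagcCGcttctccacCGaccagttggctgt

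The upstream window held 17 CpG dinucleotides in LEPR and 8 in VRTN, against a median of 12 over 19501 protein-coding genes. GC content was 67.2% in LEPR and 53.2% in VRTN, and the median was 57.6%. GGGCGG, the GC box, was searched on both strands with overlaps counted, and was found at 1 place in LEPR and not in VRTN, while 46.0% of all windows held it. TATAAA was not found in either window and was held by 9.8% of all windows. Of 6 other members, CpG counts were 3 in MC4R, 6 in PRKAG3, 12 in NR6A1, 24 in FTO, 25 in LCORL and 28 in KIT. The window before MC1R was not described as a promoter, because its annotated transcript begins at the coding start.

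Among the 9 genes with values, FTO, LEPR, KIT and LCORL were the most abundant, with means over the 7 libraries of 28.1, 25.6, 16.4 and 14.7 TPM. NR6A1 followed at 3.07 TPM, PLAG1 and PRKAG3 lay below 1 TPM (0.481 and 0.466), and MC1R and VRTN were near 0 (0.060 and 0.017). The ranges of FTO, LEPR, KIT and LCORL over libraries overlapped one another, as did those of PLAG1 and PRKAG3. LEPR had by far the widest range, 50.4-fold between its lowest and highest library, against between 3.03-fold and 4.88-fold for the 5 other genes above 3 counts in every library.

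**Figure D1:**
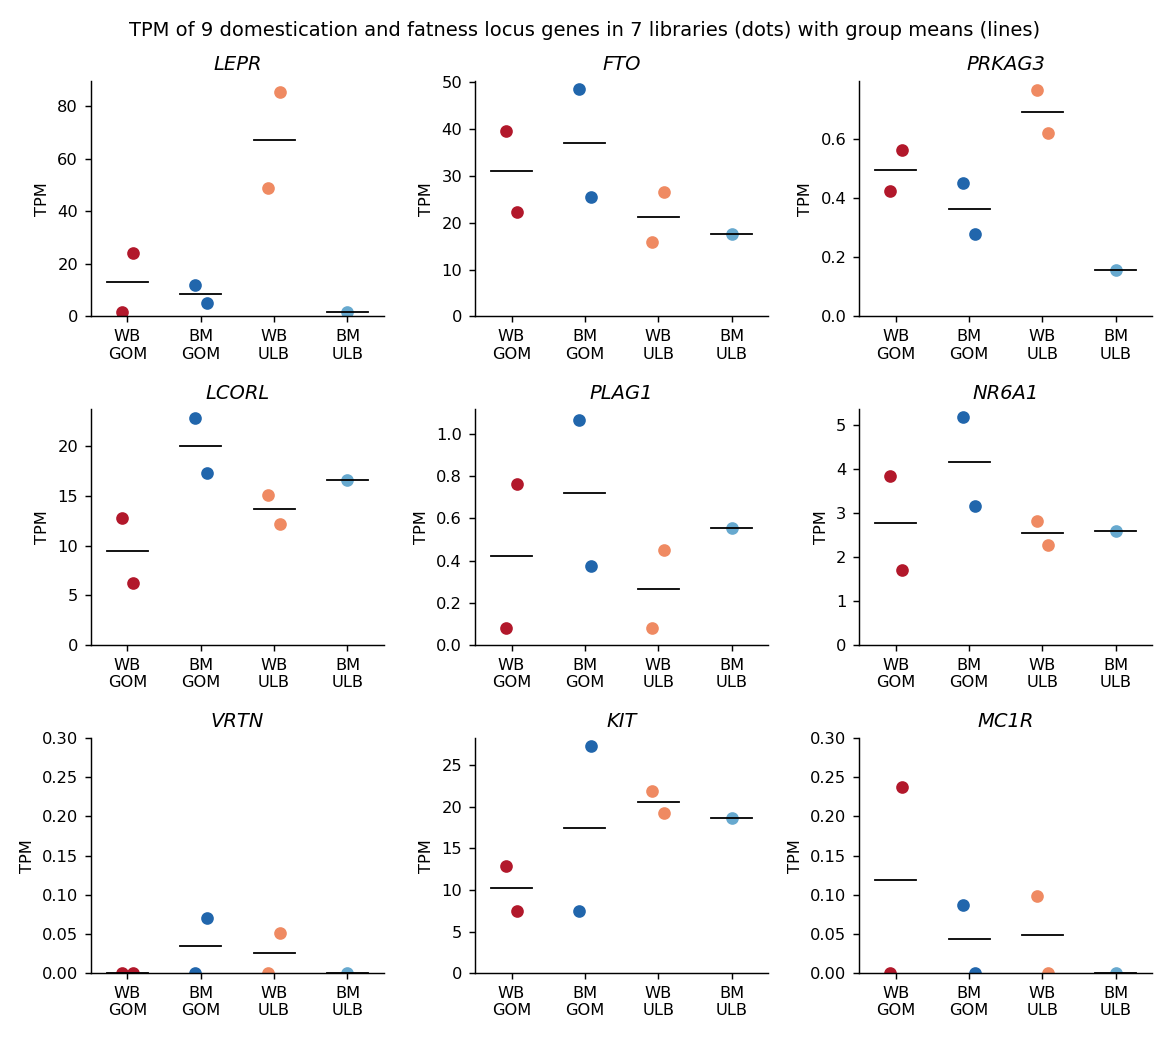
TPM of 9 genes, 1 panel per gene, with a dot for each library and a line at the group mean (WB, wild boar; BM, Bama pig; the vertical axes differ). LEPR is highest in the 2 wild boar ULB libraries at 48.8 and 85.5 TPM, and VRTN and MC1R are near 0. LCORL is lower in all 4 wild boar libraries than in all 3 Bama pig libraries, as 11.8% of genes were in TPM, and the breeds overlap after TMM normalization.

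No member passed the threshold in either breed comparison. A gene was called where edgeR's quasi-likelihood test gave a Benjamini-Hochberg adjusted p under 0.05 with a change of over 1 on the log2 scale, and this held for 4 of 16615 genes in the GOM (0.0241%) and 45 of 17877 genes in the ULB (0.252%). Of the 9 genes, 7 passed the expression filter and were tested, and VRTN and MC1R were not. With so few calls over all genes, 0 of 7 says little about these genes. At an unadjusted p below 0.05, 0 of 7 members passed in the GOM, where 8.0% of all genes did, and 1 of 7, LEPR, passed in the ULB, where 14.9% of all genes did. DESeq2 called 0 of the 7 in both depots. Between the depots of the wild boar 0 of 7 members passed as well, where 1.37% of genes were called.

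LEPR was the member with the largest breed difference. In the GOM it was measured at 1.69 and 24.2 TPM in wild boar and at 12.1 and 5.31 TPM in Bama pig. The 2 wild boar GOM libraries lay on either side of both Bama pig libraries, so the groups overlapped. In the ULB it was measured at 48.8 and 85.5 TPM in wild boar and at 1.81 TPM in the lone Bama pig library, with 1801, 3025.5 and 55.7 estimated counts behind these values. The 2 wild boar ULB libraries were the highest of all 7, and the Bama pig ULB library was the second lowest. Erythroid markers were also higher in both wild boar ULB libraries than in the Bama pig ULB library, and ALB was lower there. Their part in the LEPR difference was not tested.

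The log2 fold change of LEPR between wild boar and Bama pig was 1.30 (SE 1.03) in the GOM, with an adjusted p of 0.718 in edgeR's quasi-likelihood test, and 5.07 (SE 1.52) in the ULB, with an adjusted p of 0.235. The GOM difference rested on wild boar GOM replicate 2 and was -1.89 without it. Leaving out single libraries gave between 4.72 and 5.36 in the ULB, but the lone Bama pig ULB library, which is 1 side of the difference, cannot be left out. Without either wild boar GOM library the ULB difference was 5.07 with a standard error of 0.72, which is taken from the spread in the other groups. With only the 3 ULB libraries it was 5.08 (SE 0.45), with an edgeR adjusted p of 0.0286. Being higher in both wild boar ULB libraries than in the Bama pig library is itself common, since 43.4% of genes were so on the TPM scale. The difference between the breed effects of the 2 depots was -3.77 (SE 1.63), with an unadjusted p of 0.0463 and an adjusted p of 0.97 from edgeR's test of the interaction, which called 0 genes over the 17877 tested while 869 had an unadjusted p below 0.05 and DESeq2 called 52.

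Averaged over both depots, a contrast added after the values were seen, the breed difference of LEPR was 3.19 (SE 0.88), with an adjusted p of 0.131 in edgeR's test. It passed the threshold with DESeq2 (adjusted p = 0.0443), without the expression filter (edgeR adjusted p = 0.0309) and without wild boar GOM replicate 1 (edgeR adjusted p = 0.042), and was 1.61 without wild boar GOM replicate 2. Between the depots of the wild boar, LEPR was lower in both GOM libraries than in both ULB libraries, which 32.8% of genes were, with a log2 difference of -2.01 (SE 0.96, edgeR adjusted p = 0.386). This test did not pair the depots by animal, since the labels do not say which libraries share one. Without wild boar GOM replicate 2 this difference was -5.16 (SE 0.72) and passed the threshold (edgeR adjusted p = 0.0186). The 2 Bama pig GOM libraries were both above the Bama pig ULB library.

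The genes whose log2(TPM + 0.1) followed that of LEPR most closely over the 7 libraries, among 11279 genes above 1 TPM in all of them, were SNRPF, a spliceosome component, with a Pearson r of 0.993, and VIM, the intermediate filament vimentin, with 0.985. The range of VIM was far narrower, from 2748 to 4135 TPM. LEPROT, the leptin receptor overlapping transcript whose start site lies 91.1 kb from that of LEPR, ranged from 36.3 TPM in Bama pig ULB to 105.8 TPM in wild boar GOM replicate 1, the library in which LEPR was lowest. Of the 4 measured genes in the same TAD (topologically associated domain) or within 250 kb, none passed the threshold in any comparison.

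LEP, the leptin gene, was measured at 58.3 and 52.1 TPM in wild boar GOM, 73.6 and 143.5 TPM in Bama pig GOM, 147.2 and 254.2 TPM in wild boar ULB and 156.2 TPM in Bama pig ULB. All 3 ULB libraries were above all 4 GOM libraries, which 2.68% of genes were. In the GOM both wild boar libraries were below both Bama pig libraries, as 49.5% of genes were in TPM, and in the ULB the Bama pig library lay between the wild boar libraries. Of the 25 listed genes of leptin and melanocortin signalling, 22 were in the tables and 15 were tested in the GOM and 17 in the ULB, of which 0 passed the threshold between the breeds (1 and 3 at an unadjusted p below 0.05 in edgeR's test). The median log2 fold change of the list was 0.30 in the GOM and 0.75 in the ULB, against -0.01 and 0.00 over all genes tested.

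Between the depots of the wild boar, where edgeR called 245 of 17877 genes (1.37%), 2 of the 17 tested genes of this list passed the threshold. ADCY3, an adenylyl cyclase, was higher in the GOM, with 12.5 and 8.83 TPM against 2.49 and 3.97 TPM in the ULB (log2 difference 1.97, SE 0.34, edgeR adjusted p = 0.0332). SIM1, a transcription factor needed for the hypothalamic neurons that express MC4R, was lower in the GOM, with 0.06 and 0.01 TPM against 1.19 and 1.35 TPM (log2 difference -4.80, SE 0.90, edgeR adjusted p = 0.0402). Both calls were lost without any one of the 4 wild boar libraries, with edgeR adjusted p between 0.0789 and 0.357. Averaged over both breeds, a contrast added after the values were seen that called 505 genes (2.82%), ADCY3 and SIM1 passed again and CPE, the carboxypeptidase that processes prohormones, was higher in the GOM (log2 difference 2.35, SE 0.39, edgeR adjusted p = 0.0166). CPE was measured between 125 and 240 TPM in the GOM and between 21.1 and 58.5 TPM in the ULB. In this contrast the call of ADCY3 was lost without wild boar GOM replicate 1 (edgeR adjusted p = 0.0505) or wild boar ULB replicate 1 (0.0665), and that of CPE without wild boar ULB replicate 2 (0.056). WT1, a mesothelial marker and the only one of 5 in the tables, was between 19.9 and 83.7 TPM in the GOM and at most 0.25 TPM in the ULB, and macrophage markers summed to more in each GOM library (425 to 1139 TPM) than in each ULB library (306 to 378 TPM); their part in the depot differences was not tested.

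FTO, an RNA demethylase, was measured at 39.6 and 22.4 TPM in wild boar GOM, 48.7 and 25.6 TPM in Bama pig GOM, 15.9 and 26.6 TPM in wild boar ULB and 17.7 TPM in Bama pig ULB. The breeds overlapped in both depots. The log2 fold change between the breeds was 0.32 (SE 0.42) in the GOM and 0.14 (SE 0.50) in the ULB, with adjusted p of 0.827 and 0.901 in edgeR's test. Between the depots it was 0.78 (SE 0.40, edgeR adjusted p = 0.43) in the wild boar and 0.68 (SE 0.32, edgeR adjusted p = 0.305) over both breeds.

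Of the 4 measured genes in the FTO TAD or within 250 kb, IRX3 alone passed between the depots over both breeds. IRX5, from the FTO and IRX list, had its start site outside the FTO TAD in all 4 lists. IRX3, a homeobox transcription factor, was measured at 1.66 and 4.26 TPM in wild boar GOM, 1.2 and 1.26 TPM in Bama pig GOM, 15.95 and 13.1 TPM in wild boar ULB and 6.37 TPM in Bama pig ULB. IRX5, its relative from the same gene cluster, was measured at 0.13 and 0.47 TPM in wild boar GOM, 0.16 and 0.22 TPM in Bama pig GOM, 3.99 and 2.75 TPM in wild boar ULB and 2.87 TPM in Bama pig ULB. For both genes the 3 ULB libraries were above all 4 GOM libraries, which 2.68% of genes were. Over both breeds, where 2.82% of genes were called, the log2 difference between GOM and ULB was -2.41 (SE 0.44, edgeR adjusted p = 0.0219) for IRX3 and -3.77 (SE 0.62, edgeR adjusted p = 0.0166) for IRX5. In the wild boar alone neither passed, with -2.00 (SE 0.56, edgeR adjusted p = 0.152) for IRX3 and -3.16 (SE 0.81, edgeR adjusted p = 0.119) for IRX5.

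The IRX3 call was lost without Bama pig GOM replicate 2 (edgeR adjusted p = 0.0514), without wild boar ULB replicate 1 (0.0901) and without wild boar ULB replicate 2 (0.0521), and the IRX5 call without wild boar ULB replicate 1 (0.0622). The differences themselves stayed between -2.91 and -2.12 for IRX3 and between -4.48 and -3.42 for IRX5. Of the 18 listed genes of the FTO and IRX loci and of RNA methylation, these 2 were the ones past the threshold over both breeds, and 0 passed between the breeds in either depot (1 of 17 tested genes in the GOM, and 1 of 18 for the ULB, had an unadjusted p below 0.05 in edgeR's test). RPGRIP1L, a ciliary gene whose start site lies 0.3 kb from that of FTO on the opposite strand, and AKTIP, 141.6 kb away, did not pass in any comparison. The genes that followed FTO most closely were CACNB3, a calcium channel subunit, with an r of 0.986, and PREX1, a Rac exchange factor, with 0.979.

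PRKAG3, the muscle-type gamma subunit of the energy sensor AMPK, was measured at 0.425 and 0.563 TPM in wild boar GOM, 0.451 and 0.279 TPM in Bama pig GOM, 0.766 and 0.620 TPM in wild boar ULB and 0.157 TPM in Bama pig ULB. Each value rested on between 7.71 and 45.0 estimated counts. The GOM libraries of the breeds overlapped in TPM, and the Bama pig ULB library was the lowest of all. After TMM normalization all 4 wild boar libraries were above all 3 Bama pig libraries, which held for 5.0% of genes. Within the GOM this separation, which 19.8% of genes had, was not seen in TPM. Wild boar and Bama pig differed by a log2 fold change of 1.02 (SE 0.72) in the GOM, 1.98 (SE 0.92) in the ULB and 1.51 (SE 0.57) over both depots, with adjusted p of 0.692, 0.35 and 0.19 in edgeR's test. Skeletal muscle markers were highest in wild boar ULB replicate 1, the library with the highest PRKAG3. Without that library the ULB difference was 1.72, from 1 library of each breed. The part of muscle in the PRKAG3 difference was not tested.

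The gamma subunits used outside muscle were far more abundant, with PRKAG1 between 22.1 and 44.8 TPM and PRKAG2 between 15.95 and 53.3 TPM. Of the 11 measured genes of the AMPK list, 0 passed the threshold between the breeds in either depot, and 0 for GOM and 1 for ULB had an unadjusted p below 0.05 in edgeR's test. CYP27A1, sterol 27-hydroxylase, whose start site lies 56.4 kb from that of PRKAG3, was the one of the 12 tested neighbours that passed over both depots. It was measured at 57.7 and 94.4 TPM in wild boar GOM, 65.5 and 48.3 TPM in Bama pig GOM, 82.2 and 97.0 TPM in wild boar ULB and 9.02 TPM in Bama pig ULB. The Bama pig ULB library stood far below the other 6, and the breeds overlapped in the GOM. The log2 fold change was 2.13 (SE 0.32, edgeR adjusted p = 0.0341) over both depots, where 95 genes were called (0.531%). This test counted the depots of the same animal as separate samples. The call was lost without wild boar GOM replicate 2 (adjusted p = 0.0946) and without either wild boar ULB library (0.135 and 0.107), and the Bama pig ULB library cannot be left out.

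PLAG1, a zinc finger factor that drives IGF2 and growth, was measured at 0.078 and 0.762 TPM in wild boar GOM, 1.07 and 0.375 TPM in Bama pig GOM, 0.079 and 0.448 TPM in wild boar ULB and 0.555 TPM in Bama pig ULB. Its highest library had 27.5 estimated counts and 2 libraries were at or under the floor of 3 counts. The breeds overlapped in the GOM, and both wild boar ULB libraries were below the Bama pig ULB library, as 38.3% of genes were. PLAG1 gave a log2 fold change of -0.05 (SE 1.08) in the GOM and -1.23 (SE 1.44) in the ULB, with adjusted p of 0.993 and 0.673 in edgeR's test, and standard errors above 1 leave a difference of several fold undetectable at this depth.

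Between the breeds over both depots 0.531% of genes were called, and 2 of the 64 tested neighbours of all members. PENK, the proenkephalin gene, has its start site 121.1 kb from that of PLAG1. It was chosen after its values were seen, as the one of 4 tested neighbours past the threshold over both depots. It was measured at 1.49 and 4.76 TPM in wild boar GOM, 45.1 and 29.4 TPM in Bama pig GOM, 6.95 and 6.59 TPM in wild boar ULB and 34.5 TPM in Bama pig ULB. All 4 wild boar libraries were below all 3 Bama pig libraries, which 11.8% of genes were in TPM and 5.88% after TMM normalization. The log2 fold change between wild boar and Bama pig was -2.90 (SE 0.66, edgeR adjusted p = 0.513) in the GOM, -2.46 (SE 0.64, edgeR adjusted p = 0.198) in the ULB and -2.68 (SE 0.43, edgeR adjusted p = 0.0393) over both depots. The test over both depots counted the depots of the same animal as separate samples. The last call was lost without wild boar GOM replicate 1 (0.0574), Bama pig GOM replicate 1 (0.0623), wild boar ULB replicate 1 (0.16) or wild boar ULB replicate 2 (0.145), while the difference stayed between -3.31 and -2.35.

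LCORL, a ligand-dependent corepressor relative at the height locus of several species, was measured at 12.7 and 6.23 TPM in wild boar GOM, 22.9 and 17.3 TPM in Bama pig GOM, 15.1 and 12.2 TPM in wild boar ULB and 16.6 TPM in Bama pig ULB. In TPM all 4 wild boar libraries were below all 3 Bama pig libraries, as 11.8% of genes were. After TMM normalization the breeds overlapped over both depots, although not within a depot, where 21.5% of genes in the GOM were lower in both wild boar libraries. Its breed difference on the log2 scale was -0.52 (SE 0.41) in the GOM, -0.39 (SE 0.46) in the ULB and -0.45 (SE 0.30) over both depots, with adjusted p of 0.718, 0.678 and 0.398 in edgeR's test. Its closest followers were KHDRBS1, an RNA-binding protein, with an r of 0.982, and ENOX1, a plasma membrane oxidase, with 0.98. NCAPG, a condensin subunit whose 3′ end overlaps that of LCORL on the opposite strand, was measured between 0.21 and 2.81 TPM and did not pass.

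Of the 17 listed genes of growth and body size, 14 were in the tables and 13 were tested, with 0 past the threshold between the breeds in either depot (0 for GOM and 3 for ULB at an unadjusted p below 0.05 in edgeR's test). Their median log2 fold change was -0.45 in the GOM and -0.79 in the ULB, against -0.01 and 0.00 over all genes tested. Among 16 listed genes of other pig traits, 13 were in the tables and 10 were tested, with 0 past the threshold in either depot (2 and 2 at an unadjusted p below 0.05 in edgeR's test) and medians of 0.04 and -0.07.

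NR6A1, a nuclear receptor of the germ cell factor type linked to the number of vertebrae, was measured at 3.84 and 1.71 TPM in wild boar GOM, 5.17 and 3.15 TPM in Bama pig GOM, 2.80 and 2.26 TPM in wild boar ULB and 2.58 TPM in Bama pig ULB. The breeds overlapped in both depots. Its log2 fold change was -0.03 (SE 0.58) in the GOM and -0.13 (SE 0.65) in the ULB, with adjusted p of 0.993 and 0.932 in edgeR's test. SHTN1, which acts in axon outgrowth, and ARHGEF2 followed it most closely, with r of 0.983 and 0.982.

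VRTN, the other vertebral number gene, was listed at 0 in 5 libraries, at 0.070 TPM in Bama pig GOM replicate 2 and at 0.052 TPM in wild boar ULB replicate 2. Its highest library had 2.2 estimated counts, so no fold was computed, and 3 counts correspond to between 0.161 and 0.277 CPM (counts scaled by library total). These limits cover counting error only. SYNDIG1L, at 65.1 kb from VRTN, was listed at 0 in all 7 libraries, whereas ABCD4, a lysosomal transporter 29.0 kb away, was between 10.85 and 33.6 TPM.

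KIT, the receptor tyrosine kinase of melanocytes and mast cells, was measured at 12.9 and 7.54 TPM in wild boar GOM, 7.52 and 27.2 TPM in Bama pig GOM, 21.8 and 19.2 TPM in wild boar ULB and 18.7 TPM in Bama pig ULB. The 2 Bama pig GOM libraries were the lowest and the highest of all 7, and the breeds overlapped in the GOM. KIT differed between the breeds by a log2 fold change of -0.24 (SE 0.62) in the GOM and 0.03 (SE 0.68) in the ULB, with adjusted p of 0.923 and 0.987 in edgeR's test. In the GOM it was 1.09 without Bama pig GOM replicate 2. In the wild boar both GOM libraries were below both ULB libraries, as 32.8% of genes were, and the log2 difference was -0.79 (SE 0.56, edgeR adjusted p = 0.558). Over both breeds it was -0.67 (SE 0.43, edgeR adjusted p = 0.445), and it became -1.32 and passed without Bama pig GOM replicate 2 (edgeR adjusted p = 0.0464).

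Of the 6 mast cell markers 4 were in the tables, and their sum was 97.0 and 107 TPM in wild boar GOM, 93.6 and 85.6 TPM in Bama pig GOM, 119 and 116 TPM in wild boar ULB, and 42.7 TPM in Bama pig ULB. Bama pig GOM replicate 2, highest in KIT, had the second lowest sum, in which MS4A2 had the largest value (52.5 TPM). FCER1A (19.8 TPM) and HDC (7.8 TPM) were highest in that library, and GATA2 (5.5 TPM) was second highest there. The part of mast cells in KIT was not tested. KITLG, the ligand of KIT, was between 28.3 and 93.3 TPM and did not pass in any comparison. Of the 12 listed pigment cell genes 11 were in the tables, and 0 of the 8 tested in the GOM and 0 of the 10 tested in the ULB passed between the breeds (0 and 2 at an unadjusted p below 0.05 in edgeR's test). TYR, the tyrosinase gene, was at most 0.69 TPM in any library. PIGV, a mannosyltransferase, and PHKG1, the muscle phosphorylase kinase subunit, followed KIT most closely, with r of 0.978 and 0.951.

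MC1R, the melanocortin receptor of pigment cells, was listed at 0 in 4 libraries and at 0.237 TPM in wild boar GOM replicate 2, 0.087 TPM in Bama pig GOM replicate 1 and 0.098 TPM in wild boar ULB replicate 1. Its highest library had 3.0 estimated counts, so no fold was computed. Between the depots 1.37% of genes were called in the wild boar and 2.82% over both breeds. Of 64 tested neighbours of all members, 1 and 2 were called. SPIRE2, an actin nucleator 63.9 kb from MC1R, passed in both contrasts, among 25 measured genes in the MC1R TAD or within 250 kb. It was measured at 9.06 and 4.22 TPM in wild boar GOM, 5.03 and 5.12 TPM in Bama pig GOM, 0.43 and 0.99 TPM in wild boar ULB and 0.54 TPM in Bama pig ULB. All 4 GOM libraries were above all 3 ULB libraries, which 8.28% of genes were. The log2 difference between GOM and ULB was 3.45 (SE 0.55, edgeR adjusted p = 0.0224) in the wild boar and 3.12 (SE 0.47, edgeR adjusted p = 0.0122) over both breeds. In the wild boar the call was lost without wild boar GOM replicate 1 (0.146), wild boar ULB replicate 1 (0.21) or wild boar ULB replicate 2 (0.0886).

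**Figure D2:**
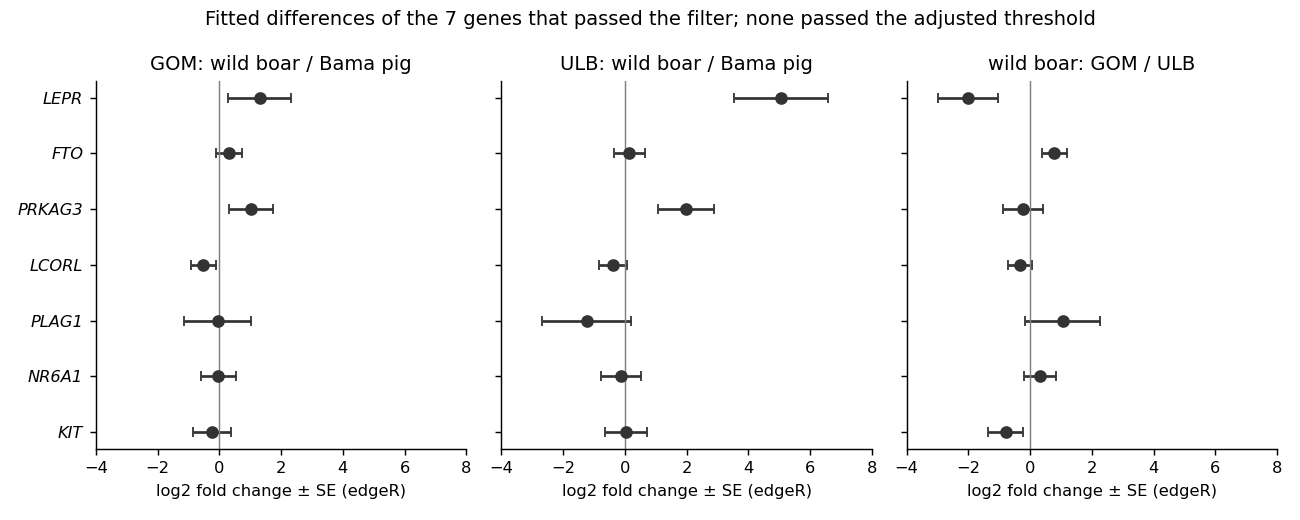
Log2 fold changes from edgeR with their standard errors (bars) for the 7 genes that passed the expression filter, between wild boar and Bama pig in the GOM and ULB and between GOM and ULB in the wild boar. The ULB difference of LEPR, 5.07 with a standard error of 1.52, is the farthest from 0, and none passed the adjusted threshold.

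**Figure D3:**
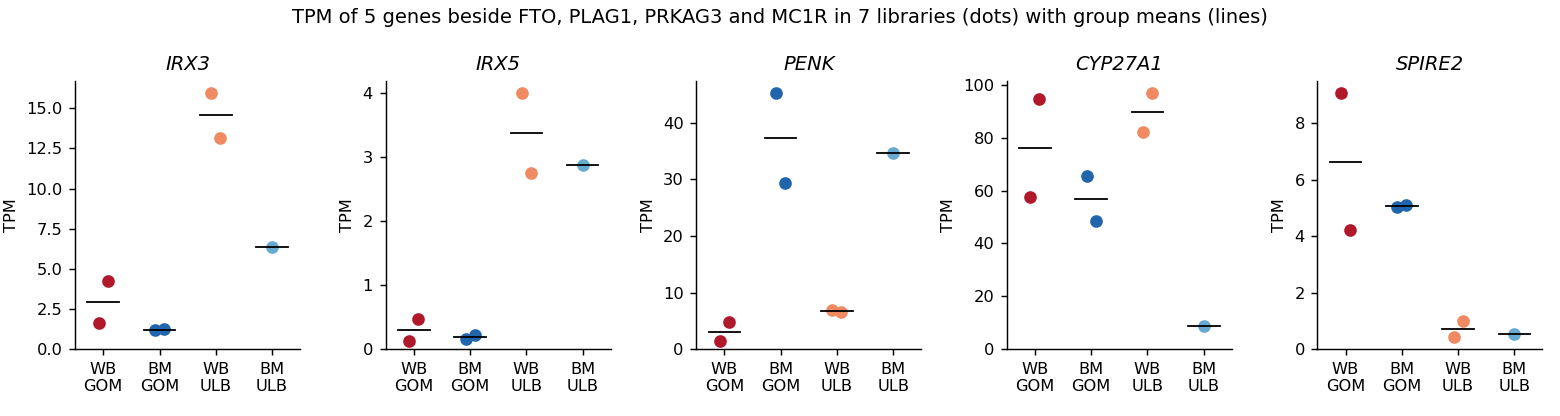
TPM of 5 genes, with a dot for each library and a line at the group mean (WB, wild boar; BM, Bama pig). IRX5 lies outside the FTO TAD, and the others are at the FTO, PLAG1, PRKAG3 and MC1R loci. IRX3 and IRX5 are higher in the ULB libraries, SPIRE2 is higher in the GOM libraries, PENK is lower in the 4 wild boar libraries, and CYP27A1 is low in the Bama pig ULB library at 9.02 TPM.

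Compartments were read from the authors' value of each 20-kb bin, taken as the first principal component (PC1) of the contact matrix, where positive values mark the gene-rich, active A compartment and negative values the inactive B compartment. At the bin of the start site MC4R and LEPR were in B in all 7 libraries, 6 of the other genes were in A in all 7, and FTO and PLAG1 changed sign in Bama pig GOM replicate 2 alone. PC1 was between -72.0 and -52.3 for MC4R and between -30.1 and -18.4 for LEPR. The highest values were those of NR6A1, between 63.7 and 102.04, and of MC1R, between 77.9 and 90.0, and neither the near absence of MC1R RNA nor that of VRTN (PC1 between 24.8 and 34.4) went with B. LEPR had RNA in all 7 libraries with its first annotated start site in B. Its 5 annotated start sites spread over 29.4 kb, and which of them the RNA used was not measured. Over the 1307 genes whose start site was in B in all 7 libraries, the median of the mean TPM was 0.83. Over the 10235 genes in A in all 7 it was 13.25. The mean of LEPR, 25.6 TPM, was above that of 90.0% of the B genes. LEPR ran from 1.69 to 85.5 TPM, with a median of 12.1 TPM over the 7 libraries.

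**Figure D4:**
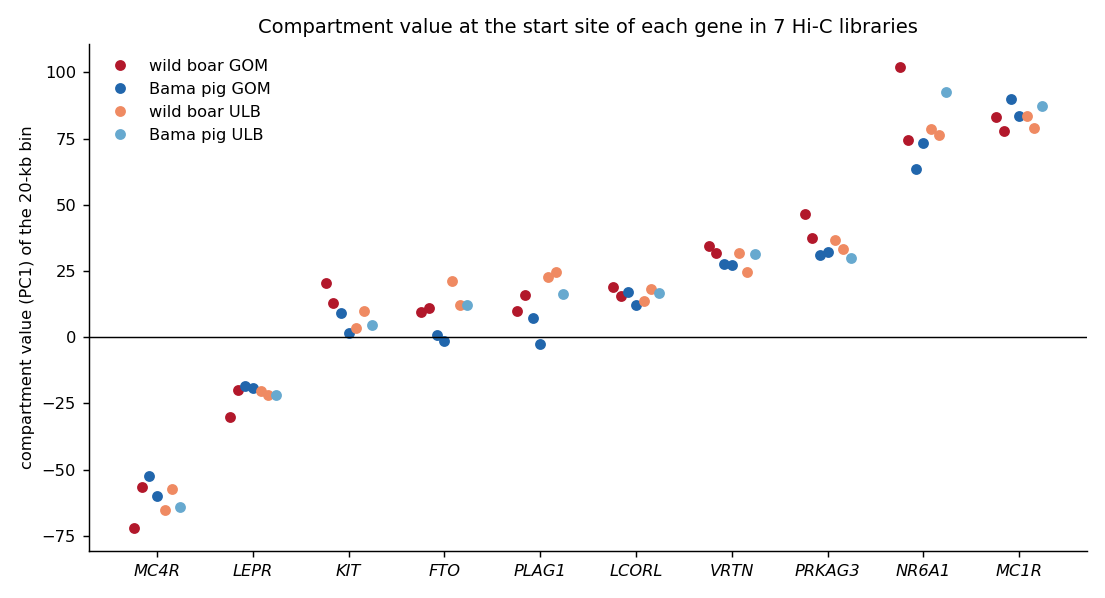
Compartment value (PC1) of the 20-kb bin holding the start site of each of the 10 genes, with a dot for each of 7 Hi-C libraries coloured by group and the genes in the order of their mean. MC4R and LEPR lie below 0 in all 7 libraries, NR6A1 and MC1R lie highest, and FTO and PLAG1 come close to 0 in the Bama pig GOM libraries.

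At the start sites, no bin of a member differed between the breeds by limma, which called 1523 of 113298 bins in the GOM (1.34%) and 0 in the ULB (0.0%), and none had opposite signs in the 2 breeds across all libraries of a depot, as 2.41% of bins in the GOM and 3.41% in the ULB did. Neighbouring bins are not independent. In the GOM, PC1 was higher in both wild boar libraries than in both Bama pig libraries at FTO, KIT, PLAG1, PRKAG3, NR6A1 and VRTN, as 21.3% of bins were. LEPR and MC1R were lower in both wild boar libraries, as 20.5% of bins were. FTO had 9.43 and 11.08 in the wild boar libraries against 0.65 and -1.37 in the Bama pig libraries, a difference of 10.6 (SE 3.99, limma adjusted p = 0.301). KIT differed by 11.3 (SE 4.38, limma adjusted p = 0.321) and PRKAG3 by 10.4 (SE 4.03, limma adjusted p = 0.32). NR6A1 had the largest difference, 19.7 (SE 7.59, limma adjusted p = 0.315), and passed only without wild boar GOM replicate 2 (33.5, limma adjusted p = 0.0409), while it was 5.96 without wild boar GOM replicate 1 and 9.19 as a mean over the gene. In the ULB the differences ran from -15.1 at NR6A1 to 7.34 at PLAG1. As a mean over the gene the ULB difference was -3.37 at NR6A1, and at KIT it was 8.48 against 1.79 at the start site. LEPR, the member with the largest difference in RNA there, differed by 0.54 (SE 5.02, limma adjusted p = 0.998).

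Along the gene, all 5 bins of LEPR were below 0 in all 7 libraries, and all 13 bins of NR6A1 were above 0. FTO, the longest gene, crossed between compartments. Of its 21 bins, 19 and 4 were above 0 in the wild boar GOM libraries, 9 and 1 in those of Bama pig GOM, 20 and 16 in those of wild boar ULB, and 18 in Bama pig ULB. Among the GOM libraries the 2 wild boar libraries had the highest and the second lowest number. LEPR lay on the B side of a transition: PC1 was above 0 in all libraries in the bins farthest upstream of its start site and below 0 over the gene and the 500 kb downstream.

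Within 500 kb of the start sites, a comparison added after the values were seen, a few bins had opposite signs in the breeds. At the MC1R locus the 2 bins at the chromosome end, 152.2 and 172.2 kb past its start site, were above 0 in all 4 wild boar libraries (30.2 to 53.7) and below 0 in all 3 Bama pig libraries (-33.8 to -14.4). At the FTO locus 1 bin, 45.3 kb upstream of the start site, was above 0 in all 4 wild boar libraries (1.27 to 12.7) and below 0 in all 3 Bama pig libraries (-11.7 to -3.18). The other loci had no such bin, and 0.153% of all bins were of this kind. In the ULB alone 28 of 51 bins around KIT were positive in both wild boar libraries and negative in the lone Bama pig library. Many of these were close to 0. At the other loci at most 4 bins were (MC4R and PLAG1), and 3.41% of all bins had opposite signs in either direction. In the GOM alone 1 of the 51 bins around KIT was of this kind. At most 2 were at any locus (PLAG1 and MC1R), against 2.41% of all bins in either direction.

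TADs were taken from the authors' 4 lists, one for each breed in each depot, which rest on merged replicates, so no spread can be given. The list of Bama pig ULB may include the library not used here. The TAD that held the start site had both edges within 40 kb in wild boar and Bama pig for 6 of the 10 genes in the GOM and 8 of 10 in the ULB, against 57.5% and 59.7% of 13048 placed genes. Between the depots both edges were shared by 5 of 10 genes in the wild boar and 5 of 10 in the Bama pig, against 54.5% and 51.4%. KIT, MC4R, NR6A1 and VRTN kept both edges in all 4 lists, as 38.8% of genes did. In all these shares a start site outside a TAD, as that of PLAG1, counted as not shared. Between the breeds, 10072 genes in the GOM (7501 shared) and 10062 in the ULB (7786 shared) lay in a TAD in both lists. Between the depots these were 9955 genes in the wild boar (7117 shared) and 9947 in the Bama pig (6705 shared). VRTN had the smallest TAD, between 140 and 160 kb, where the median over all TADs of a list was between 440 and 460 kb. KIT was the only annotated protein-coding gene with a start site in its TAD or within 250 kb. The start site of PLAG1 lay outside a TAD in all 4 lists, 6.6 kb (GOM) or 26.6 kb (ULB) from the nearest edge, and NR6A1 spanned an edge.

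The TAD of LEPR was 840 kb in wild boar GOM and 820 kb in both ULB lists, from 146760001 or 146780001 to 147600000 on chromosome 6, and 420 kb in Bama pig GOM, where it ended at 147180000. The TAD of LCORL began at 12560001 on chromosome 8 in 3 lists and at 12780001 in wild boar GOM, which made it 660 kb there and 880 or 900 kb in the others. The TAD of MC1R, which began at the end of the chromosome, was 980, 880, 620 and 400 kb in wild boar GOM, Bama pig GOM, wild boar ULB and Bama pig ULB. The TAD of FTO differed between the depots and hardly between the breeds. It ended at 31720000 on chromosome 6 in all 4 lists, and began at 31040001 (wild boar GOM) or 31060001 (Bama pig GOM) in the GOM lists (680 and 660 kb) but at 30520001 in both ULB lists (1200 kb). The start site of IRX3, at 31044919, lay 4.9 kb inside the edge in wild boar GOM, 15.1 kb outside it in Bama pig GOM and 524.9 kb inside it in both ULB lists. Both GOM distances are smaller than the 20-kb bin. The start site of IRX5, at 30515015, lay 5.0 kb outside the edge of both ULB lists and over 500 kb outside those of the GOM lists. The edges closest to IRX3 and IRX5 were thus used in the GOM and the ULB lists respectively, and RNA of both genes was higher in the ULB. Whether the edges and the RNA are related was not tested.

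**Figure D5:**
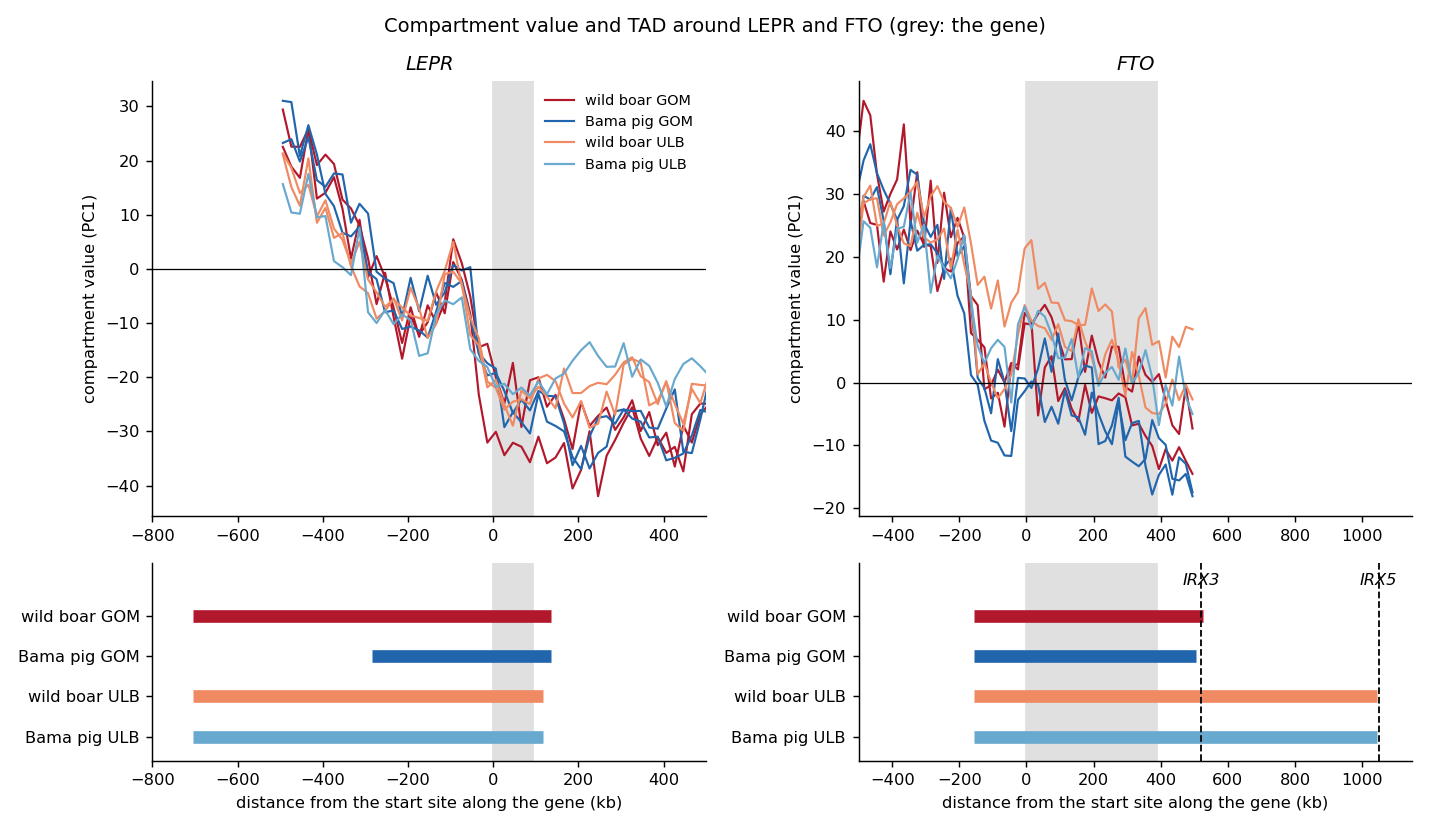
Upper panels, compartment value (PC1) of 20-kb bins within 500 kb of the start sites of LEPR and FTO, with a line for each of 7 Hi-C libraries; lower panels, the TAD that holds the start site in each of the 4 lists, with the gene in grey and the IRX3 and IRX5 start sites as dashed lines. Horizontal axes give the distance along the gene in kb. The TAD of LEPR is shorter in Bama pig GOM (420 kb), and that of FTO is longer in both ULB lists (1200 kb) than in the GOM lists (680 and 660 kb).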

How the data were processed

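RNA-seq and Hi-C values of wild boar and Bama pig GOM and ULB were analysed in 7 libraries each, grouped by the sample labels. The authors quantified RNA with Kallisto (0.43.0 in the submitters' processing notes) against Ensembl release 102 of Sscrofa 11.1, and deposited estimated counts and TPM per gene. The authors also deposited a score per 20-kb bin, named an A-B index. Its mean is 0 on each chromosome, so it was read as PC1. TADs came from 4 lists called on merged replicates. The members and gene lists were chosen with earlier results of these data known. Estimated counts were rounded and tested by edgeR 4.0.16 (quasi-likelihood test, TMM factors, two-sided, Benjamini-Hochberg) on genes with TPM above 0.1 in every library of at least 1 group. The GOM comparison used 4 libraries. The other comparisons used 1 fit of 7, in which the lone Bama pig ULB library was assumed to vary like the other groups. The contrasts over both depots and over both breeds were added after the values were seen and had no term for the animal. PC1 was tested with limma 3.58.1 over 113298 bins. Alternatives were other normalizations, filters and fits, DESeq2 1.42.0, a replicate block and leaving out each library. The lone Bama pig ULB library was kept wherever a contrast needed it. Scripts were tested on simulated data. The text names the members, list genes past the threshold (up to 4 per list and comparison), genes at the same loci (up to 3 per locus, nearest first) and the 2 genes most alike to each member above 1 TPM in all libraries. LEP, PRKAG1, PRKAG2, KITLG and TYR were named for their role, after their values were seen. Positions and upstream sequences came from RefSeq on Sscrofa11.1, which placed 13517 genes by symbol. The upstream window of 1 member is not reported here. Only the counts have a known depth. TPM, PC1 and TADs carry none.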

Additional observations from a re-analysis of the deposited data

How the results depend on the processing

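Between 2 and 4 libraries per comparison from 2 animals a breed limited all tests, the lone Bama pig ULB library had no spread of its own, and TAD lists had none. Low counts limited PLAG1, PRKAG3, VRTN and MC1R. Counting each gene under each alternative, 422 expression results kept their direction and side of the threshold, 18 reversed, 9 newly passed and 25 no longer passed. The cause of these changes was not tested.

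The number of genes called in the GOM was 167 with DESeq2, 26 without the TPM filter and 0 to 123 leaving out single libraries. In the ULB it was 418 with DESeq2, 197 without the filter, 181 with 3 ULB libraries and 0 to 106 leaving out single libraries. Between the depots of the wild boar it was 961 with DESeq2, 528 without the filter and 57 to 386 leaving out single libraries. The interaction gave 52 with DESeq2, 7 without the filter and 0 to 1 leaving out single libraries. Over both depots the breeds differed in 1090 genes with DESeq2, 571 without the filter and 15 to 1686 leaving out single libraries. Over both breeds the depots differed in 1249 genes with DESeq2, 896 without the filter and 249 to 831 leaving out single libraries. Bins called by limma in the GOM numbered 713 centred on the chromosome median, 3 with 4 GOM libraries and 3 to 1704 leaving out single libraries, and bins switched in sign 2726 to 5964. In the ULB 548 bins were called with 3 ULB libraries and 0 to 1 leaving out single libraries, and 3869 to 6760 switched.

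With a replicate block, 15 genes were called in the GOM, 91 in the ULB, 1623 between the depots in the 4 wild boar libraries and 293 between the breeds over both depots. The labels do not say that a number marks an animal, and same-numbered wild boar GOM and ULB libraries deviated together with r = 0.154, and same-numbered GOM libraries of the 2 breeds with r = 0.15, over 17877 genes. In the block, LEPR between the wild boar depots was -3.03 and called (adjusted p = 1.37e-05), KIT in the GOM was 0.05, and the other members with a blocked fit kept their call and direction. PLAG1 had no blocked fit between the wild boar depots.

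Directions of members that missed the threshold turned when single libraries were left out. In the GOM LEPR ran from -1.89 to 2.2, NR6A1 from -0.58 to 0.34, PLAG1 from -2.69 to 0.80, KIT from -0.91 to 1.09 and FTO from -0.01 to 0.77. In the ULB NR6A1 ran from -0.40 to 0.09, KIT from -0.16 to 0.20 and FTO from -0.18 to 0.39, and KIT was -0.10 with upper-quartile factors. Between the wild boar depots NR6A1 ran from -0.22 to 0.72, PLAG1 from -1.54 to 2.61, LCORL from -0.78 to 0.02 and PRKAG3 from -0.60 to 0.06. For PC1, MC1R in the GOM was 0.28 as a 3-bin mean. In the ULB LEPR was -2.34 as a 3-bin mean, -0.08 centred, -1.95 over the gene and -0.21 to 1.29 leaving out single libraries. There MC4R ran from -1.27 to 6.78, LCORL from -2.99 to 1.30 with 1.39 over the gene, and VRTN from -6.47 to 0.40. KIT ran from -1.41 to 4.98, with -0.74 centred and 8.48 over the gene.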
